A study of Homo sapiens with 2 samples.

Results

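The AP-1 and EGR immediate early factors examined here were the 10 listed genes FOS, FOSB, FOSL2, JUN, JUNB, JUND, EGR1, EGR2, EGR3 and IER2. A probe set was taken as a member where the array's annotation gave it exactly 1 gene symbol and that symbol was on the list. By this rule 9 of the 10 genes had a probe set, out of 19775 genes in all, and together they had 21 probe sets. EGR2 had none under the annotation used and was not analysed here. The study compared MM.1S cells cultured with plasmacytoid dendritic cells (pDCs) with MM.1S cells cultured alone. MM.1S is an established human multiple myeloma line of plasma-cell-like tumour cells, and pDCs are the dendritic cells best known for producing type I interferon. Total RNA of each group was hybridised to 1 Affymetrix HG-U133 Plus 2.0 array, so there was no replicate and no test, and all values describe these arrays alone. The source of the pDCs, their ratio to the myeloma cells, the time in culture and any separation of the cells before RNA extraction are not stated in the labels used here.

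AP-1 is a dimer of basic leucine zipper proteins. FOS-family proteins bind DNA as partners of JUN-family proteins, while JUN-family proteins can also pair among themselves. EGR proteins bind GC-rich DNA through zinc fingers and are held back by the NAB co-repressors. Transcription of most of these genes starts within minutes of a growth factor, cytokine or stress signal through MAP kinases and the serum response factor, and their mRNAs are short-lived. They are therefore called immediate early genes. In myeloma cells AP-1 is known as a target of MAP kinase signals that arrive from cells of the bone marrow.

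The promoters of 3 members are shown from RefSeq (GRCh38.p14), each from 250 bases before to 50 bases after the annotated start. JUN and FOSB are shown because their brightest probe sets had the lowest ratios among the members with a ratio, and EGR1 because its brightest probe set gave nearly equal signals. Capitals mark matches, on either strand, to the TATA box (TATAAA), the cAMP response element (TGACGTCA), the AP-1 site (TGANTCA), the site TGACATCA that is known from the JUN promoter, the EGR site (GCGNGGGCG) and the CArG box bound by serum response factor, and none of the matches shown overlapped another.
JUN at chr1:58783998-58784297, minus strand: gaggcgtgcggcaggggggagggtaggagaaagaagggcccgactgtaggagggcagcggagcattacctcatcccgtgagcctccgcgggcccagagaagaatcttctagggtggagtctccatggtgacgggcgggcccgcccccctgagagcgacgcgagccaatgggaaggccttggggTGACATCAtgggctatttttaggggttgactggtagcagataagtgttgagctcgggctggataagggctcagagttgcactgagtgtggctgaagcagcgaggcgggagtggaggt
FOSB at chr19:45467746-45468045, plus strand: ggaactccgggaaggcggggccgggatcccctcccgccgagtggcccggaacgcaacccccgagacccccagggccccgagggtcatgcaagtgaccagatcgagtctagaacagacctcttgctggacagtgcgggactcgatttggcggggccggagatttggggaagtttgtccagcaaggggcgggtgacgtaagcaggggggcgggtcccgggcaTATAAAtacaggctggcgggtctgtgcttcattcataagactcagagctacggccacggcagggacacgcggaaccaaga
EGR1 at chr5:138465229-138465528, plus strand: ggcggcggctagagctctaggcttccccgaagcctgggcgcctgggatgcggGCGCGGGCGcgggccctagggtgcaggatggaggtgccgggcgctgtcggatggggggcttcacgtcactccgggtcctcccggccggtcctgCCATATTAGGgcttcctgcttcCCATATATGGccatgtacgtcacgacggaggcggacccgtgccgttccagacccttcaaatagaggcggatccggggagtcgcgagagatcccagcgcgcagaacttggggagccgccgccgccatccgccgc
JUN held the TGACATCA site from base -67 to -60 relative to the start, which was searched for because it is known there. FOSB held a TATA box at -30 to -25. EGR1 held 2 CArG boxes, at -105 to -96 and -83 to -74, and an EGR site at -198 to -190. Promoters of 8 members were searched, and those of EGR2 and EGR3 were left out. Among the 8, FOS and JUNB also held a TATA box, JUND a cAMP response element, FOSL2 an AP-1 site and IER2 no match. Of 35116 RefSeq promoters of the same length, 11.5% held a TATA box, 1.85% the cAMP response element, 7.71% an AP-1 site, 2.61% the TGACATCA site, 9.43% an EGR site and 1.29% a CArG box. The matches describe these letters only.

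No member gene was shown to pass 2-fold at the floor used, but FOSB and EGR3 have only bounds and FOS no ratio. These genes can therefore not be called within 2-fold. The signal is a linear intensity per probe set. Signals below the median of an array (115.9 with pDCs and 124.0 alone) were set to that median, called the floor here, and a probe set below it on 1 array has only a bound on its ratio. For each gene the brightest probe set, by mean log2 signal, stands for the gene. Of the 9 genes, 6 were above the floor on both arrays, FOSB and EGR3 on 1 array, and FOS on neither. Among the 8 with a ratio, 0 were at least 2-fold higher with pDCs, against 3.16% of the 14408 genes that passed the floor somewhere, and 0 were at least 2-fold lower, against 4.51%. At 1.5-fold, 0 were higher (11.5% of all genes) and 2 were lower, JUN and FOSB (15.3% of all genes). The median log2 ratio, co-culture minus alone, was -0.18 for the members and -0.03 for all genes. Counts this small cannot be set apart from the background shares. In bulk RNA, fewer cells of a type and less RNA per cell cannot be told apart.

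**Figure D1:**
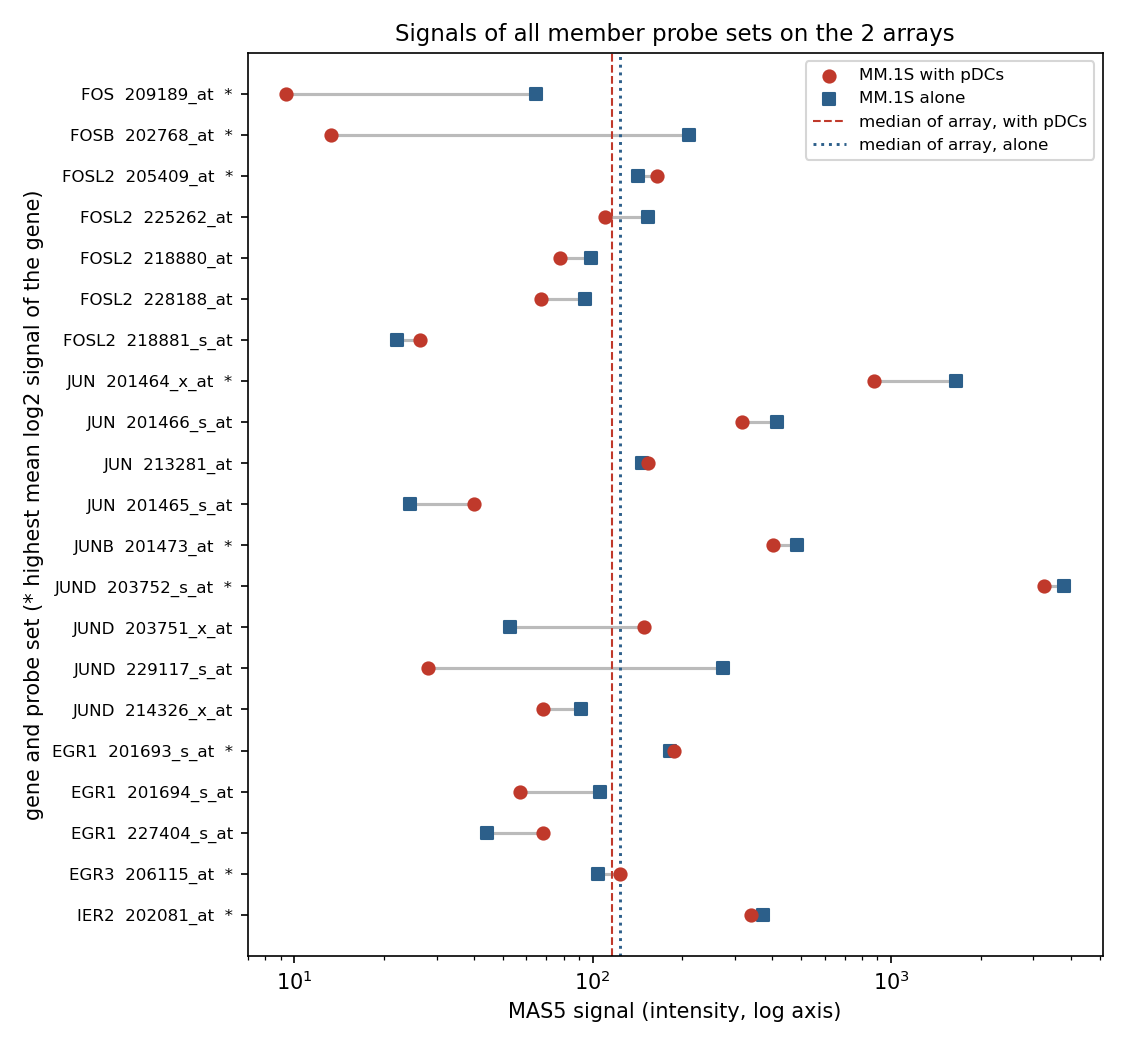
MAS5 signal (intensity, log axis) of each of the 21 member probe sets on the array of MM.1S cells with pDCs (red circles) and alone (blue squares), with the median of each array as a vertical line and an asterisk at the probe set that represents the gene. Long lines for FOS, FOSB and 1 JUND probe set end below the medians in co-culture, while the brighter ones of JUNB, JUND and IER2 lie close together.

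FOSB differed most between the arrays as deposited, on a co-culture signal far below the floor. FOSB encodes a FOS-family AP-1 subunit, and its 1 probe set had a signal of 13.3 with pDCs, against 209.6 alone. The co-culture signal was only 11.5% of the floor and the signal alone was 169% of it. Because the lower signal lay below the floor, FOSB was at least 1.81-fold lower with pDCs (log2 ratio -0.85 or lower). As deposited, the 2 signals differed 15.8-fold, a ratio that rests on a signal below the floor.

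FOS, the founding member of the family, was below the floor on both arrays and has no ratio. Its signal was 9.42 with pDCs, against 64.7 alone, on 1 probe set. The direction matches that of FOSB, but both signals are below the median of their array. FOSL2, which encodes the subunit FRA2, showed no gap of this kind. Its brightest probe set had 164 with pDCs, against 142 alone (log2 ratio 0.20). A FOSL2 probe set that passed the floor only in MM.1S cells alone had 110.2 with pDCs, against 153 alone, a log2 ratio of -0.40 or lower. The 3 remaining FOSL2 probe sets, all below the floor on both arrays, had signals from 26.4 to 77.5 with pDCs and from 22.0 to 98.5 alone. The FOSL2 probe sets thus differed in sign, and the gene's direction is uncertain.

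JUN had the lowest ratio of the members above the floor on both arrays. JUN encodes the AP-1 subunit that is activated by JNK and that raises its own transcription. Its brightest probe set had 876 with pDCs, against 1657 alone, which is 1.89-fold lower (log2 ratio -0.92). A share of 5.85% of all genes with a ratio lay at or below this value. The other JUN probe sets did not repeat its size. A second one had 317 with pDCs, against 416 alone (log2 ratio -0.39). Another had 154 with pDCs, against 147 alone (log2 ratio 0.07). The last one, below the floor on both arrays, had 40.2 with pDCs, against 24.4 alone. All but 1 of these 4 are of the classes x_at or s_at, which can bind more than 1 transcript, and the exception is the one at 0.07. The JUN ratios above the floor spanned 0.99 on the log2 scale. Of 1237 genes with 3 probe sets passing the floor on each array, 28.1% had a span at least as wide.

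JUNB and JUND were slightly lower on their brightest probe sets. JUNB, a JUN-family subunit often induced together with JUN, had 401 with pDCs, against 482 alone on its 1 probe set (log2 ratio -0.27). JUND, the family member known for steady expression in unstimulated cells, had 3249 with pDCs, against 3786 alone (log2 ratio -0.22). Ratios at or below these were common, in 33.6% of all genes for JUNB and 37.0% for JUND.

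The other JUND probe sets were dim and contradicted each other. One of them held the only member value past 2-fold at the floor used. Its signal was 28.0 with pDCs, against 273 alone, at least 2.35-fold lower (log2 ratio -1.24 or lower). A second had 149 with pDCs, against 53.0 alone, a log2 ratio of at least 0.26 in the other direction. The last had 68.0 with pDCs, against 91.2 alone, both below the floor. All 4 JUND probe sets are of the classes x_at or s_at, so JUND has no ratio without them. Over all members, 1 of 13 probe sets with a ratio was at least 2-fold lower (4.67% of all 25795 such probe sets) and 0 were at least 2-fold higher (4.19%). Of the 13 ratios, 8 were negative, 4 positive and 1 was 0, and their median was -0.22, beside 0.00 for all probe sets.

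**Figure D2:**
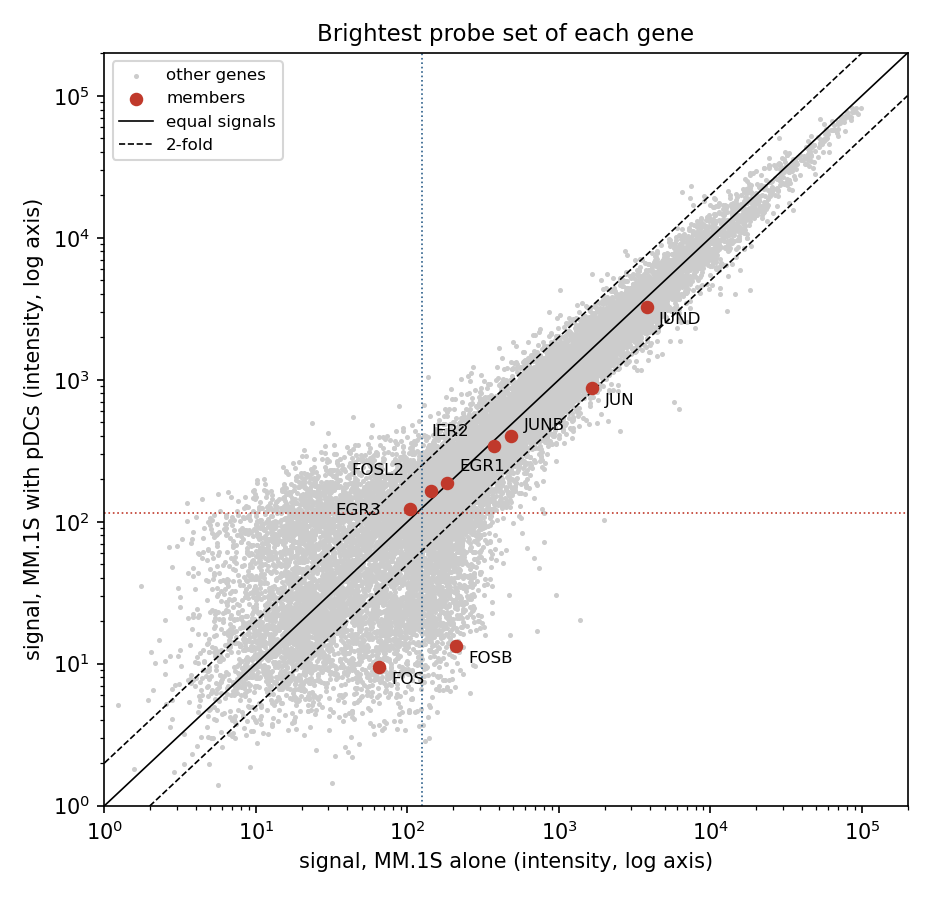
Signal of the brightest probe set of each gene on the array of MM.1S cells with pDCs (vertical, intensity, log axis) against MM.1S cells alone (horizontal, intensity, log axis), with members in red, other genes in grey, solid and dashed lines at equal signals and at 2-fold, and dotted lines at the array medians. JUND, JUNB, IER2, EGR1 and FOSL2 lie near the line of equal signals, JUN lies at 876 against 1657, and FOS and FOSB lie in the cloud of dim signals.

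EGR1 gave near-equal signals on its brightest probe set, and EGR3 had only a bound. EGR1, a zinc finger factor induced through serum response elements, had 187 with pDCs, against 182 alone (log2 ratio 0.04). The other EGR1 probe sets were below the floor on both arrays and opposed each other, with 56.9 with pDCs, against 106 alone, on one and 68.3 with pDCs, against 44.4 alone, on the other. All 3 EGR1 probe sets are of the class s_at, so EGR1 too has no ratio when x_at and s_at probe sets are left out. EGR3, a factor of the same family known in lymphocytes, had 124 with pDCs, against 104 alone, on 1 probe set. The first signal was 107% of its floor and the second 84.1%, so the bound was a log2 ratio of 0 and no fold is given. IER2, an immediate early gene for a small nuclear protein outside both families, had 339 with pDCs, against 373 alone (log2 ratio -0.14).

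The disagreement between probe sets of 1 gene is the only measure of error these arrays hold. Among the 4844 genes that had 2 or more probe sets passing the floor on each array, the median standard deviation of the log2 ratio between probe sets of a gene was 0.34, and in 51.0% of these genes the probe sets took both signs. The ratios of FOSL2, JUNB, JUND, EGR1 and IER2 on their brightest probe sets were each smaller than this value. JUN, at -0.92, and the bound for FOSB, at -0.85, were larger. A ratio larger than 0.34 is common and does not by itself set a gene apart. Across 11522 genes whose signals passed both floors, the absolute log2 ratio had a median of 0.33, and the log2 ratio a standard deviation of 0.53. The FOSB bound rests on 1 probe set below the floor with pDCs, a kind that the value of 0.34 leaves out. The spread between probe sets holds no difference between cultures or between arrays of 1 group. Of the 21 member probe sets, 8 were above the floor on both arrays, 5 on 1 array and 8 (38.1%) on neither, beside 37.2% on neither among all probe sets with 1 gene.

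**Figure D3:**
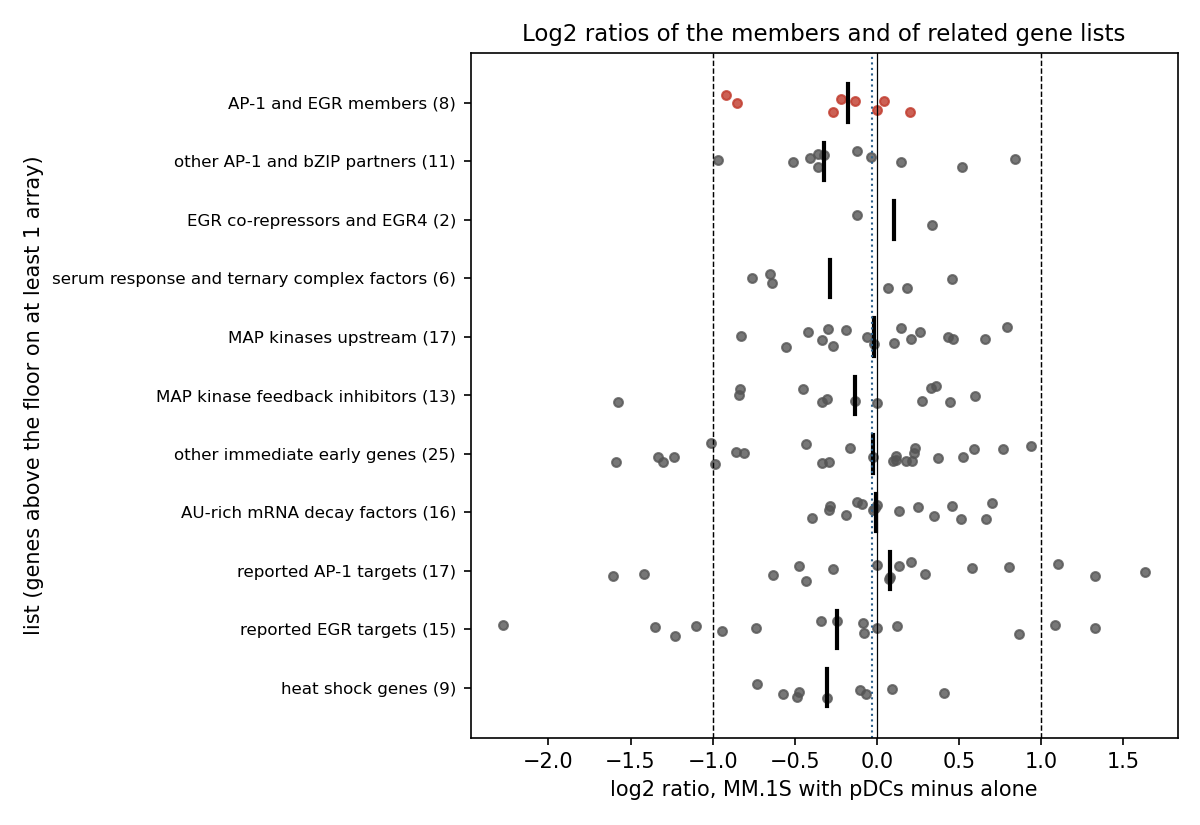
Log2 ratio, MM.1S with pDCs minus alone, of each gene above the floor on at least 1 array (dots, shifted vertically at random) for the members in red and for 10 related lists in grey, with the median of each list as a thick bar, dashed lines at 2-fold, a solid line at 0 and a dotted line at the median of all genes. The 8 members are drawn between -0.92 and 0.20, where the FOSB dot at -0.85 and the EGR3 dot at 0 are bounds set by the floor, while the other immediate early genes reach -1.59.

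Genes around the AP-1 and EGR factors were read from 10 lists. Among other bZIP proteins that can pair with or resemble AP-1 subunits, 11 of 13 with a probe set had a ratio, 0 were past 2-fold, 8 were negative and 3 positive, and the median log2 ratio was -0.32. ATF3, a stress-induced factor, had 3397 with pDCs, against 3070 alone (log2 ratio 0.15), and its 2 other probe sets were higher, at 0.64 and 1.22. MAF, which MM.1S cells express from an immunoglobulin translocation, had 11785 with pDCs, against 15126 alone (log2 ratio -0.36), and its 2 other probe sets had -0.51 and -1.40. Of EGR4 and the co-repressors, EGR4 had a log2 ratio of -0.12, with 0.92 on its other probe set, and NAB1 of 0.34, while NAB2 was below the floor on both arrays.

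On their brightest probe sets, the regulators upstream with a ratio were within 2-fold. Serum response factor and its partners had a median of -0.29 over 6 genes, 3 in each direction, which turned to 0.04 with the mean over probe sets and to 0.23 without x_at and s_at probe sets, with ELK3 at 0.18 and ELK4 at 0.06. Of 24 listed upstream kinases, 18 had a probe set and 17 a ratio, and their median was -0.02, with 8 positive and 9 negative, MAP2K1 at 0.26 and MAP2K2 at -0.19. Factors that bind or shorten AU-rich mRNAs, which the immediate early mRNAs are known to be, had a median of 0.00 over 16 genes, 8 in each direction. ZFP36L2 had 0.66 on the brighter of its probe sets and -0.92 on the dimmer, and HNRNPD had 0.51, with its other 5 from -0.52 to 0.80. In these 3 lists 0 genes were past 2-fold on the brightest probe set, while dimmer ones reached -1.06 for MAPK8 and 1.34 for TIA1, both named after their values were seen.

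Feedback inhibitors of MAP kinases had a median of -0.14 over 13 genes, with 7 negative and 6 positive. DUSP1, the phosphatase of p38 and JNK that is itself an immediate early gene, was the 1 member past 2-fold. It had 148 with pDCs, against 442 alone, 2.99-fold lower, and its other probe set had a log2 ratio of -0.74. Other immediate early genes had a median of -0.03 over 25 genes. Of these, 5 (20%) were at least 2-fold lower and 0 at least 2-fold higher, beside 4.51% and 3.16% of all genes. RHOB, a small GTPase, had 1469 with pDCs, against 4422 alone (3.01-fold lower). TRIB1, a pseudokinase, had 2533 with pDCs, against 6391 alone (2.52-fold lower). CCN1, a secreted matrix-associated protein, was at least 2.46-fold lower, and the kinase SIK1 was 2.35-fold lower. The remaining one was KLF2, a zinc finger factor, at 302 with pDCs, against 608 alone (2.01-fold lower), named after its value was seen. These lists were chosen with results of these data known, so the count is a description.

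Genes reported elsewhere as targets went both ways. Of 17 reported AP-1 targets with a ratio, 3 were at least 2-fold higher and 2 at least 2-fold lower, beside 3.16% and 4.51% of all genes, and the median was 0.08. CD44, an adhesion receptor, had 23106 with pDCs, against 7447 alone (3.10-fold higher), while 1 of its 8 other probe sets, below the floor with pDCs, had -1.06 or lower. On one probe set TGFB1 was higher by a factor of at least 2.51, and on the other it had -0.29 or lower, and HMOX1, named after its value was seen, was 2.15-fold higher. MMP9, a matrix protease, was 3.05-fold lower (186 with pDCs, against 565 alone), and CCND1, the G1 cyclin, at least 2.67-fold lower. Of 15 reported EGR targets with a ratio, 2 were at least 2-fold higher and 4 at least 2-fold lower, beside the same shares of all genes, and the median was -0.24. The repressor gene BCL6 was lower by a factor of at least 4.85, the cell cycle inhibitor CDKN1A 2.55-fold lower and THBS1, a matrix glycoprotein, 2.34-fold lower. The other THBS1 probe set with a ratio had only -0.16 (log2). ICAM1 (2.15-fold lower) and ID2 (2.12-fold higher), named after their values were seen, complete the list with TGFB1. TGFB1 is on both lists, and other pathways also control many of these genes.

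Heat shock genes, which stress during handling can raise together with FOS and JUN, had a median of -0.30 over 9 genes, 7 of them negative, and 0 were past 2-fold on the brightest probe set. HSPD1 had -0.10, with its 3 others from -0.39 to 0.78. HSP90AA1 had -0.57, while its 3 others were positive, from 0.11 to 1.03. HSP90AB1 had 0.41 with 2 others at 1.01 and 1.07, and HSPH1 had 0.09 with 2 others from -0.01 to 2.64, both named after their values were seen. The probe sets of these genes thus gave no single direction. The arrays also differed in a sign of RNA quality: the ratio of 3′ to 5′ signal was 8.09 with pDCs and 19.5 alone for the actin control, and 2.46 with pDCs and 3.07 alone for the GAPDH control. The part of either in the members' values was not tested.

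Marker genes were set beside these values. All 11 plasma cell markers were above the floor on both arrays, with a median log2 ratio of -0.08. Of 17 pDC markers, 9 passed the floor with pDCs and 11 alone. Over the 13 with a ratio, the median was -0.34, with 9 negative and 4 positive. Of the 13, 5 were at least 2-fold lower and 2 at least 2-fold higher, beside 4.51% and 3.16% of all genes. GZMB had 174 with pDCs, against 604 alone (3.47-fold lower), MAP1A and BCL11A were lower by factors of at least 2.37 and 2.32, and SCN9A was higher by a factor of at least 2.41. The other MAP1A probe set with a ratio had -0.80 (log2), and the 2 others of BCL11A had -0.47 and 0.20. Among defining markers, CLEC4C (61.4 with pDCs, against 6.43 alone) and IL3RA (29.0 with pDCs, against 21.1 alone) were below the floor on both arrays. LILRA4 was above it on both, with 306 with pDCs, against 256 alone (log2 ratio 0.26). TLR7 passed only with pDCs (213, against 96.2 alone), and TLR9 passed only alone (111 with pDCs, against 260 alone). LILRA4, TLR7 and TLR9 were named after their values were seen. The summed pDC marker signal was 26591 with pDCs, against 18490 alone, of which LAMP5, named after its value was seen, made up 19601 with pDCs and 9053 alone. Of 10 monocyte markers, 5 passed with pDCs and 6 alone. All 10 summed to 3893 with pDCs, against 5482 alone, with LYZ at 17.0 with pDCs, against 711 alone. CTSS, named after its value was seen, made up 3150 of the sum with pDCs and 3765 alone. Of 12 T cell markers, 5 passed on each array. All 12 summed to 2290 with pDCs, against 1588 alone, of which TRAT1 made up 1265 with pDCs and 630 alone. CD3D and CD3E were below the floor on both arrays. CD3G, named after its value was seen, was above it on both, with 150 with pDCs, against 124 alone. Of 7 B cell markers, 5 passed with pDCs and 6 alone, with sums of 1967 with pDCs, against 2292 alone. Of 7 NK cell markers, 5 passed on each array, with sums of 1218 with pDCs, against 1220 alone. The part of these cells in the members' values was not tested.

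**Figure D4:**
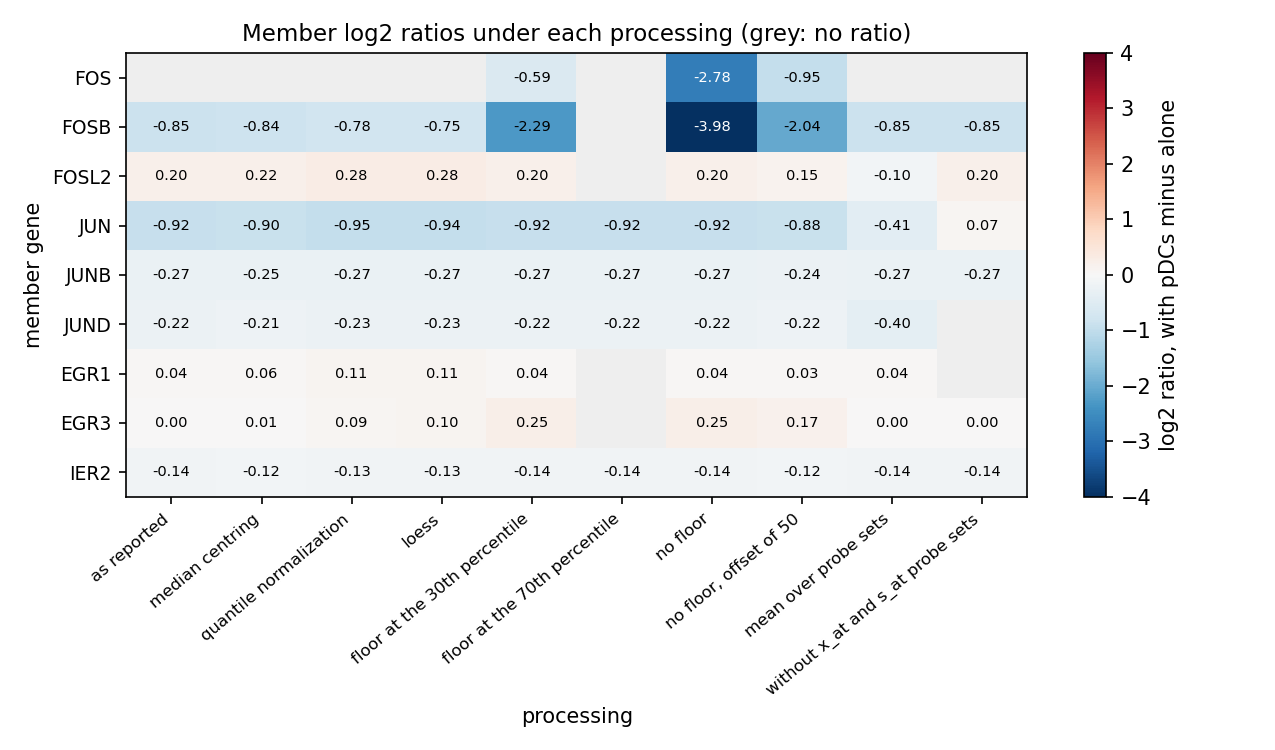
Log2 ratio, MM.1S with pDCs minus alone, of each member gene (rows) under each way of processing (columns), in colour and figures, with grey where a gene had no ratio. FOSB ranges from -0.75 to -3.98 and FOS has a ratio only with a lower floor or none, JUN is near -0.92 except with the mean over probe sets (-0.41) and without x_at and s_at probe sets (0.07), and FOSB and EGR3 values that use a floor can be bounds.

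The members differed in how far their ratios depended on the processing. JUNB, JUND and IER2 were negative in each setting that gave them a ratio, and none of their values reached 2-fold. Several settings could not change these values. The brightest signals of these genes and of JUN lay above each floor tried, so moving or removing the floor left their ratios as they were. JUNB and IER2 also have 1 probe set each, so a mean over probe sets changed nothing for them. JUN was negative in 9 of 10 settings and turned to 0.07 when x_at and s_at probe sets were left out, and FOSL2 turned to -0.10 with the mean over its probe sets. FOSB was at least 2-fold lower with a floor at the 30th percentile (-2.29 as a bound), with no floor (-3.98) and with no floor and an offset of 50 (-2.04). FOS was past 2-fold only with no floor at all (-2.78).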

How the data were processed

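Biotin-labelled cRNA from total RNA of each culture was hybridised to Affymetrix HG-U133 Plus 2.0 arrays, 1 per group, grouped by title. The authors deposited linear intensity signals, with MAS5 named as the tool per the submitters' processing notes, and no version or detection call was used. The trimmed mean (2% left out at each end) was 500.1 on both arrays, so such scaling would hide a shift shared by most transcripts.

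Of 54675 probe sets, 41091 had 1 gene symbol and were used, 1801 had several, and 41037 of those used matched RefSeq by gene identifier. The annotation is GEO's and can be old. The floor was each array's median, a size of 2-fold was used because 1 array per group allows no test. Precision is limited by the number of arrays. All 9 members with a probe set are named with every probe set. In each pathway list, up to 4 genes past 2-fold by size are named, or the 2 brightest where there were none, and exceptions are marked. Marker lists are given by counts and sums with a few defining or large members. Lists covered bZIP partners, EGR co-repressors, serum response factors, MAP kinases and their inhibitors, other immediate early genes, mRNA decay, AP-1 and EGR targets, heat shock, and cell type markers. Members, lists and alternatives were chosen with earlier results of these data known. Promoters and motif matches used RefSeq sequences of GRCh38.p14.

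Alternatives were median centring, quantile normalization, loess (span 0.3), a floor at percentile 30 or 70, no floor, no floor with an offset of 50, the mean over probe sets, no x_at or s_at probe sets, and thresholds of 1.5-fold and 3-fold. Calculations were tested on simulated data with changes planted only in bright probe sets, so bounds and disagreeing probe sets were not checked. They used Python 3.11.15 with pandas 2.3.3, numpy 2.4.6, statsmodels 0.14.6, scipy 1.17.1 and matplotlib 3.10.9.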

Additional observations from a re-analysis of the deposited data

How the results depend on the processing

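No paired analysis was possible because each group had 1 array and no result came from a test. The count of member genes at least 2-fold lower was 0 of 8. It became 1 of 9 with a floor at the 30th percentile and 2 of 9 with no floor. It was 1 of 9 with no floor and an offset of 50, and 2 of 8 at 1.5-fold. In the other 7 alternatives it was 0. The count of members higher with pDCs was 0 in all 11 alternatives. In both directions these include thresholds of 1.5-fold and 3-fold in place of 2-fold. At 3-fold a count that was 0 at 2-fold could only stay 0. Positive ratios numbered 2 of 8 members, 0 of 4 with a floor at the 70th percentile and 1 of 8 with the mean over probe sets. Without x_at and s_at probe sets they numbered 2 of 6. They numbered 3 of 8 with median centring, quantile normalization or loess. With a floor at the 30th percentile, no floor, or no floor and an offset of 50, they numbered 3 of 9. Of all 14408 genes with a ratio, 456 were at least 2-fold higher and 650 lower. These counts were 1502 and 1920 of 17536 genes with a floor at the 30th percentile, and 187 and 199 of 9824 at the 70th. Of 19775 genes they were 2365 and 2776 with no floor, and 1162 and 1443 with no floor and an offset of 50. Of 14408 genes they were 1656 and 2208 at 1.5-fold, and 64 and 95 at 3-fold. These moves follow from how many dim probe sets enter and from the threshold itself. No scaling moved the median of all genes by more than 0.1 (log2). Other immediate early genes at least 2-fold lower numbered 5, and 2 without x_at and s_at probe sets, 1 at 3-fold, 8 at 1.5-fold and 4 or 5 in the rest; those at least 2-fold higher numbered 0, but 3 with no floor or a floor at the 30th percentile, 2 with no floor and an offset of 50 and 3 at 1.5-fold. Medians near 0 turned sign in some settings: from -0.05 to 0.10 for upstream kinases, from -0.14 to 0.00 for their inhibitors, from -0.33 to 0.10 for other immediate early genes and from -0.02 to 0.02 for mRNA decay factors. With no replicates and dim signals, differences below the floor cannot be measured.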

Other observations

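The feedback phosphatases did not move as 1 group. Genes in this paragraph were named after their values were seen. DUSP6, the phosphatase of ERK, had 2075 with pDCs, against 1652 alone on its brightest probe set (log2 ratio 0.33), and its 2 other probe sets had higher ratios, from 0.88 to 2.12. DUSP4, a nuclear phosphatase of MAP kinases, had 4723 with pDCs, against 3118 alone (log2 ratio 0.60), with 0.58 and 1.01 on its other probe sets. DUSP2, a phosphatase of activated lymphocytes, had 212 with pDCs, against 379 alone (log2 ratio -0.84) on 1 probe set. CREB1, which binds the cAMP response element, had 1062 with pDCs, against 592 alone (log2 ratio 0.84), and its 6 other probe sets ranged from -0.05 to 1.75. The stress gene GADD45B had 3808 with pDCs, against 1986 alone (log2 ratio 0.94), and its 3 other probe sets with a ratio ranged from 0.32 to 1.53. GADD45A, in contrast, had 3472 with pDCs, against 6873 alone (log2 ratio -0.99). On 1 array per group these are sizes with no test.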
